A study of Mus musculus with 10 samples.

Results

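Immediate early genes were examined in microdissected embryonic mouse tissue with and without fibulin-1. The 10 genes, Fos, Jun, Junb, Jund, Egr1, Ier2, Myc, Atf3, Klf6 and Ccn1 (formerly Cyr61), were chosen by name, by their symbols in the platform annotation. They are 10 of 12393 named genes on the array and were read on 14 of its 22626 probe sets, an Affymetrix probe set being a group of short probes that together give 1 value for a transcript. The tissue was hindbrain with pharyngeal arches 1 to 4 at E10.5, a stage at which the arches are growing into the primordia of face and neck. There were 5 Fbln1-null embryos, homozygous for a gene trap insertion in Fbln1 and numbered 3, 4, 5, 7 and 8, and 5 wildtype embryos, numbered 1 to 5. All came from matings of heterozygous carriers of the insertion. No treatment was given to either group, and the insertion is present in every cell of the null embryos. Litters are not labelled, so p-values cover only the variation among the 10 samples at hand.

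Immediate early genes are genes whose transcription starts within minutes of a growth factor, stress or membrane signal, without the need for new protein. ERK, JNK and p38 kinases act on transcription factors already bound at their promoters, chiefly the serum response factor SRF with its ETS-domain partners and the CREB family, and the resulting mRNAs are short-lived. Fos and Jun proteins pair through leucine zippers into AP-1, the dimeric factor that binds many later-induced genes, and ERK signalling downstream of fibroblast growth factors is a known inducer of the family in embryonic tissue. The series was set up to examine fibulin-1 and FGF8 signalling.

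The sequences just before the transcription start show which of the known signal-response letters each gene carries there. RefSeq promoters (GRCm38.p6) were held for 7 of the 10 genes, Atf3, Ccn1, Jun, Jund, Junb, Fos and Klf6. The 250 bases before the annotated start are printed for the 4 of them whose transcripts were measured above the filter. For Fos and Atf3 the last 100 bases are shown, since these hold the CREB-type letters. Each runs 5′ to 3′ on the gene's own strand. Capitals mark TGACGT, the core of the site bound by CREB and ATF factors, its variant TGACATCA, and TATAAA. In Ccn1 and Atf3 the first of these lies on the opposite strand and reads ACGTCA.
Jun (chr4:95052223-95052472, minus strand): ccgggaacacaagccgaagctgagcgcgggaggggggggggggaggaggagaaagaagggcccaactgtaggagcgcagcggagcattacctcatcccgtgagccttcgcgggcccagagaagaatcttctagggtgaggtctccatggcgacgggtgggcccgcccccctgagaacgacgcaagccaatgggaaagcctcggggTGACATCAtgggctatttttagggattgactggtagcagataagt
Jund (chr8:70697489-70697738, plus strand): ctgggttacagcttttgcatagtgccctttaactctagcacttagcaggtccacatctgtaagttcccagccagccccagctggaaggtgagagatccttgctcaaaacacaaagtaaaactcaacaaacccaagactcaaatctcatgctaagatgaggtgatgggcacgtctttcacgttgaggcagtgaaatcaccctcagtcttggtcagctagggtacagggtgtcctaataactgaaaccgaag
Klf6 (chr13:5861239-5861488, plus strand): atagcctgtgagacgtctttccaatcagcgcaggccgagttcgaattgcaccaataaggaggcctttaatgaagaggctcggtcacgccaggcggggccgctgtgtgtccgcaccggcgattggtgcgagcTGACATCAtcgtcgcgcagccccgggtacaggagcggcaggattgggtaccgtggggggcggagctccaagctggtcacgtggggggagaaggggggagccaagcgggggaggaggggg
Ccn1 (chr3:145649986-145650235, minus strand): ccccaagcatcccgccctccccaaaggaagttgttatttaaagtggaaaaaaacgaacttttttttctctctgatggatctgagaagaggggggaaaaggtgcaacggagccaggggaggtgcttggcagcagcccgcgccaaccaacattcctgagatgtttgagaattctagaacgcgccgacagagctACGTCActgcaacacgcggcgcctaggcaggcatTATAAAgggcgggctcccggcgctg
Fos (chr12:85473790-85473889, plus strand): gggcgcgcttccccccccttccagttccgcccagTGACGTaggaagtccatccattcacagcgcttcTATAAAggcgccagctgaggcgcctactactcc
Atf3 (chr1:191183334-191183433, minus strand): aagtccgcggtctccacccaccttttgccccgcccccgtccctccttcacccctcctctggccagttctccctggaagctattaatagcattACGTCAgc

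TGACGT was present in 3 of the 7 promoters, Fos, Ccn1 and Atf3, at 66, 59 and 8 bases before the start, and 6.47% of 32851 RefSeq mouse promoters of this length hold it. TGACATCA was present in Jun, at 45 bases before the start, and in Klf6, at 119 bases, against 2.93% of all promoters. Both motifs were chosen after these sequences were read. TATAAA stood in Fos and Ccn1, at 33 and 25 bases before the start, and in 12.4% of all promoters. The full palindrome TGACGTCA (1.55% of promoters), the AP-1 site TGACTCA (4.46%) and the CArG box bound by SRF (1.47%) were in 0 of the 7, on either strand. TGACGT overlaps TGACGTCA in its letters. CACGTG, the E-box bound by Myc dimers, was in Klf6 alone of the 7 (6.02% of promoters), and GGAATG, the letters read by TEAD factors, in Ccn1 alone (12.6%). CCAAT was in 3 of the 7, Jun, Junb and Klf6 (33.8%), GGGCGG, the GC box, in 5 of the 7 (32.7%), and the ETS site ACCGGAAGT in 0 (0.804%). Jund held none of the patterns searched. Its window had 47.6% G and C, against 54.8% to 66.4% in the other 6 and a median of 52.4% over all promoters. These are matches of letters in a short window and say nothing of binding. Sites farther upstream than 250 bases were not searched, so a motif missing here may stand outside the window.

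A probe set was counted as measured if 5 or more of the 10 arrays gave it a log2 signal over 4. By this filter 7 of the 14 probe sets and 6 of the 10 genes were measured, namely Jun, Jund, Egr1, Myc, Klf6 (on 2 probe sets) and Ccn1. Fos, Junb, Ier2 and Atf3 had no probe set over it. Of the 7 measured probe sets 3 had a lower mean in null tissue (Jun, Jund and Ccn1) and 4 a higher one (Egr1, Myc and both of Klf6). Over all 9801 probe sets that passed the filter 56.9% had a lower mean in null tissue.

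Differences between the genotypes were tested with limma across all 9801 probe sets. None of the 7 passed a Benjamini-Hochberg adjusted p of 0.05, where 0.0204% of probe sets did, and their adjusted p was 0.323 to 0.859. At an unadjusted p of 0.05 stood 2 of the 7, 1 lower (Ccn1) and 1 higher (Klf6), where 12.4% of all probe sets did, 8.56% lower and 3.84% higher. Lower probe sets made up 69.1% of those at the unadjusted threshold as deposited, 53.3% after quantile normalization and 50.8% with arrays centred on their medians. The count of 2 was 0 without wildtype replicate 1, 1 without null replicate 4 or wildtype replicate 2, and 3 without null replicate 3, null replicate 8 or wildtype replicate 4. Of all 9801 probe sets 1215 stood at this threshold with every array. With 1 array left out the number was 923 (without wildtype replicate 2) to 1269 (without wildtype replicate 3). On 0 of the 7 were the genotypes without overlap, against 2.77% of all probe sets. Their median log2 fold change (null minus wildtype) was 0.16, with Klf6 counted on 2 probe sets, and that of all probe sets was -0.04. By gene, each on its brightest measured probe set, the median was -0.008, against -0.038 for all measured genes. The 7 probe sets under the filter were tested among all 22626, where 0.00442% passed the adjusted threshold and 7.11% the unadjusted one. Of these 7, 0 passed the adjusted and 0 the unadjusted threshold, with an adjusted p of 0.735 to 0.988. A p above the threshold does not show that the genotypes were alike, and the intervals below give the range of differences that the 10 arrays allow. In tissue taken whole, fewer cells of a type and less RNA per cell cannot be told apart.

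**Figure D1:**
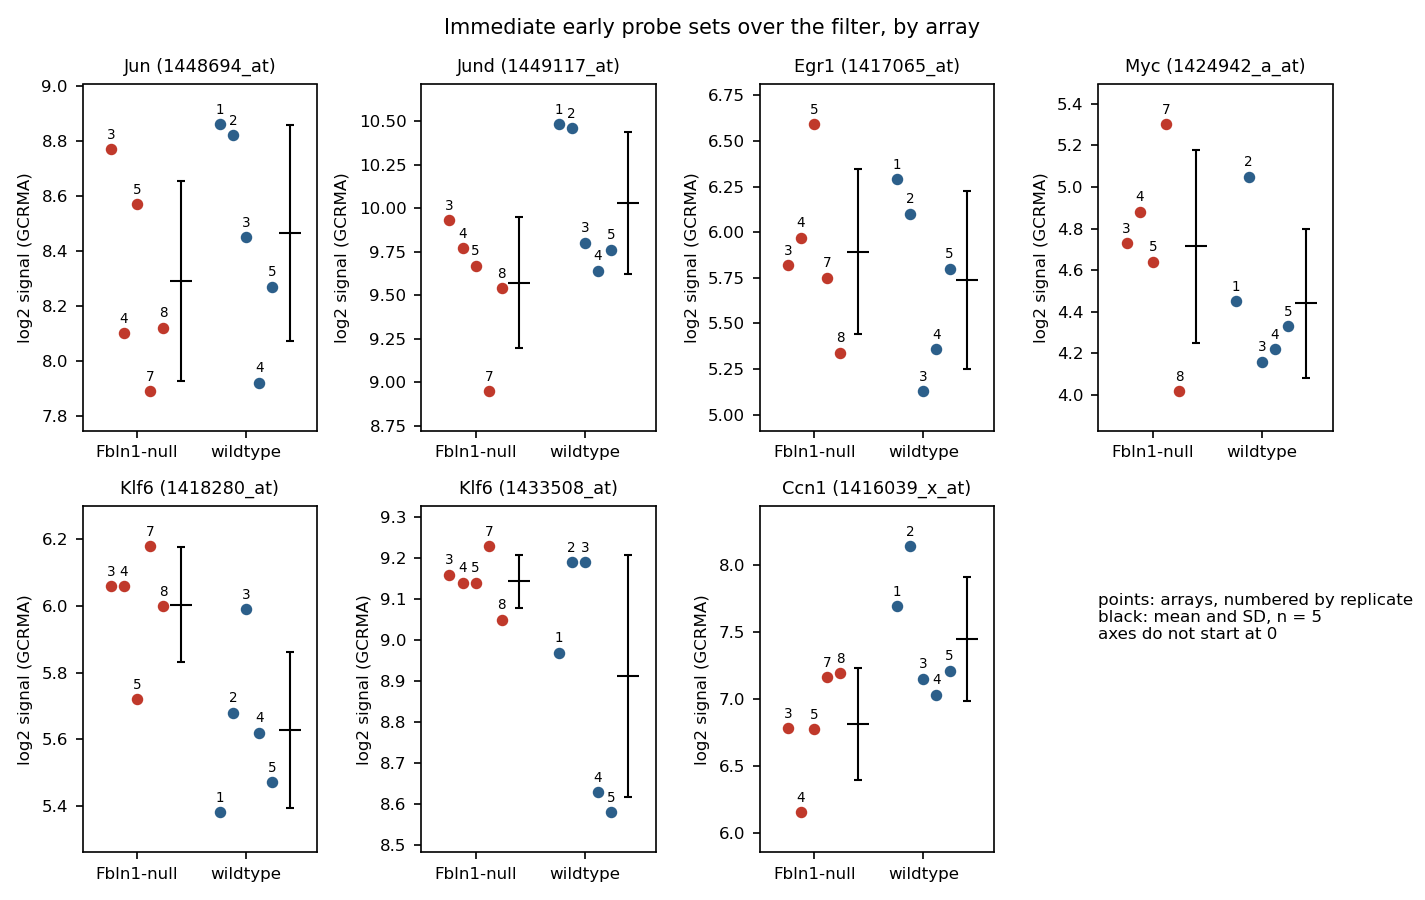
Log2 signal (vertical axis, not starting at 0) of the 7 measured probe sets on each array, Fbln1-null arrays at left and wildtype at right, each point numbered by replicate, with the mean and SD (n = 5) in black. The genotypes overlap in every panel, and wildtype replicates 1 and 2 lie highest for Jun, Jund and Ccn1.

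Among the AP-1 subunits, Jund and Jun gave clear signals. Jund, the Jun protein that is present in most unstimulated cells, had a log2 signal of 9.93, 9.77, 9.67, 8.95 and 9.54 in null embryos 3, 4, 5, 7 and 8, against 10.48, 10.46, 9.80, 9.64 and 9.76 in wildtype embryos 1 to 5. Wildtype replicates 1 and 2 stood above the other 8 arrays and null replicate 7 below them, while the rest of the 2 groups overlapped. The means were 9.57 ± 0.38 in null and 10.03 ± 0.41 in wildtype tissue (SD, n = 5 each). The log2 fold change was -0.45 (SE 0.22, 95% interval -0.93 to 0.03), with a limma adjusted p of 0.433 and an exact permutation p of 0.143. Without wildtype replicates 1 and 2 it was -0.16 (limma adjusted p = 0.822), and without null replicate 7 alone -0.30. Removal of the 2 highest wildtype arrays can only raise the log2 fold change. This holds also for Jun and Ccn1 below, where the same 2 arrays were highest. Without wildtype replicate 4 Jund had -0.55. With the gap between 3′ and 5′ actin control probe sets as a covariate Jund had -0.68 (limma adjusted p = 0.285).

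Jun, the classical partner of Fos, was read on 2 probe sets. The brighter gave 8.77, 8.10, 8.57, 7.89 and 8.12 in null embryos, against 8.86, 8.82, 8.45, 7.92 and 8.27 in wildtype embryos. Replicates 1 and 2 were again the highest arrays, and the groups overlapped over most of their range. The log2 fold change was -0.17 (SE 0.21, 95% interval -0.64 to 0.29, limma adjusted p = 0.796), and without these 2 arrays it was 0.08. With 1 array left out it was -0.31 (without wildtype replicate 4) to -0.07 (without null replicate 7), and it was also -0.07 without wildtype replicate 1, -0.08 without wildtype replicate 2 and -0.29 without null replicate 3. Fitted with the gap between 3′ and 5′ actin control probe sets as a covariate, Jun had -0.48 (limma adjusted p = 0.342). The dimmer probe set, under the filter, read 3.97, 3.68, 3.23, 3.45 and 3.42 in null embryos, against 4.74, 4.72, 3.86, 3.16 and 3.50 in wildtype embryos. It was over log2 4 in wildtype replicates 1 and 2 only, its log2 fold change was -0.44 (SE 0.33), and without these 2 arrays it was 0.04. Over the 10 arrays the 2 Jun probe sets had a Pearson r of 0.774.

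Fos, the inducible partner of Jun, lay at the bottom of the scale. Its log2 signal was 2.58 in null embryos 3, 4, 5 and 8 and 3.23 in null embryo 7, against 2.58 in all 5 wildtype embryos. GCRMA gives dim probe sets nearly the same value on every array, so 9 of the 10 arrays carry no order for Fos. Its log2 fold change of 0.13 (limma SE 0.12, adjusted p = 0.780) came from the single array that differed, and without that array it was 0.001.

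Junb, a Jun protein that dampens AP-1 activity, likewise read 2.27, 2.41, 2.27, 2.27 and 2.27 in null embryos, against 2.27, 2.38, 2.27, 2.27 and 2.27 in wildtype embryos. On 4 of 5 arrays in each genotype it was within 0.01 of its lowest value. Atf3, a stress-induced bZIP factor that pairs with Jun proteins, was 2.36, 2.63, 2.45, 2.61 and 2.36 in null embryos and 2.36 in all 5 wildtype embryos. Its level left the lowest value in null embryos 4, 5 and 7 and in no wildtype embryo. All 10 Atf3 values were far under the filter, and the log2 fold change of 0.12 (SE 0.06) had a limma adjusted p of 0.735 and an exact permutation p of 0.0238, which is not adjusted over the table.

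**Figure D2:**
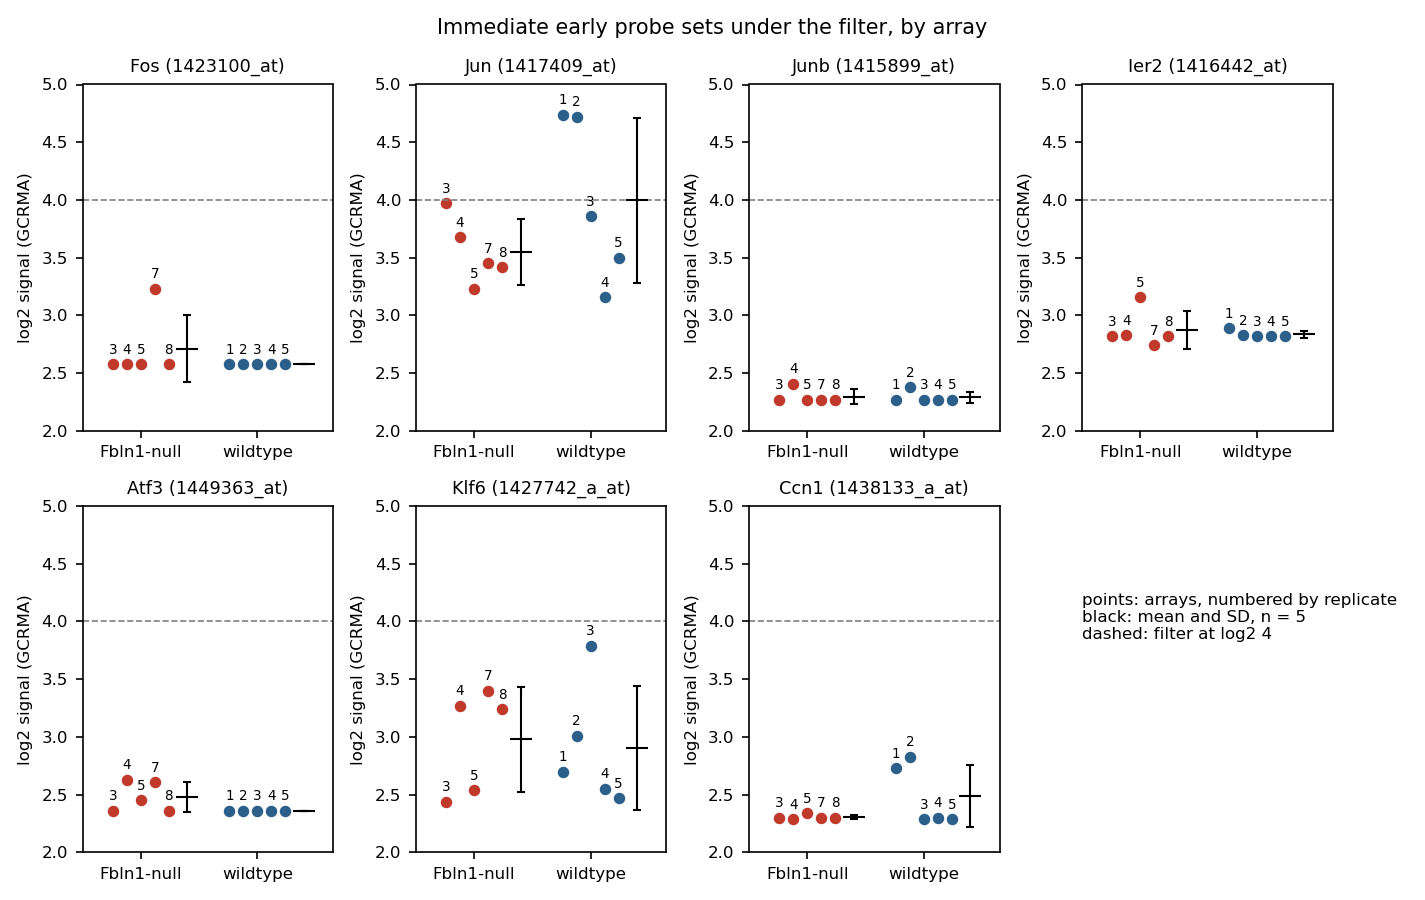
Log2 signal (vertical axis, 2 to 5) of the 7 probe sets under the filter on each array, Fbln1-null at left and wildtype at right, with the mean and SD (n = 5) in black and the filter at log2 4 dashed. Fos, Junb, Ier2, Atf3 and the dimmer Ccn1 probe set sit near the bottom of the scale on nearly every array, and the dimmer Jun probe set passes the line in wildtype replicates 1 and 2 only.

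The zinc finger factors of the family were Egr1 and Klf6. Egr1, a direct target of ERK and SRF that is often used as a marker of recent signalling, read 5.82, 5.97, 6.59, 5.75 and 5.34 in null embryos, against 6.29, 6.10, 5.13, 5.36 and 5.80 in wildtype embryos. Null replicate 5 was the highest array and wildtype replicate 3 the lowest, and the groups otherwise interleaved. The means were 5.89 ± 0.45 in null and 5.74 ± 0.49 in wildtype tissue (SD, n = 5 each), a log2 fold change of 0.16 (SE 0.26, 95% interval -0.40 to 0.72, limma adjusted p = 0.859). Without wildtype replicates 1 and 2, the 2 highest wildtype arrays for Egr1, the log2 fold change was 0.46 (limma adjusted p = 0.545). Without wildtype replicate 3, the lowest array, it was 0.007. The sign turned without null replicate 5, to -0.02. That array also had the widest gap between the 3′ and 5′ actin control probe sets, 2.85 on the log2 scale. The gap was 2.19 to 2.59 on the other null arrays and 2.0 to 2.38 on the wildtype arrays. With this gap as a covariate the Egr1 log2 fold change was -0.25 (limma adjusted p = 0.691). Its part in the result was not otherwise tested.

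Klf6, a Krüppel-like factor that binds GC boxes, had higher means in null tissue on both measured probe sets. The first read 6.06, 6.06, 5.72, 6.18 and 6.0 in null embryos, against 5.38, 5.68, 5.99, 5.62 and 5.47 in wildtype embryos. In 4 of the 5 null arrays it lay above every wildtype array, and null replicate 5 and wildtype replicate 3 made the overlap. The means were 6.01 ± 0.17 in null and 5.63 ± 0.23 in wildtype tissue (SD, n = 5 each). The log2 fold change was 0.38 (SE 0.14, 95% interval 0.07 to 0.68), a 1.30-fold difference, with an exact permutation p of 0.0159, a limma unadjusted p of 0.0198 and an adjusted p of 0.323.

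The brighter Klf6 probe set read 9.16, 9.14, 9.14, 9.23 and 9.05 in null embryos, against 8.97, 9.19, 9.19, 8.63 and 8.58 in wildtype embryos. The null arrays were close together, and wildtype replicates 4 and 5 lay well below the other 8. The log2 fold change was 0.23 (SE 0.14, 95% interval -0.08 to 0.55, limma adjusted p = 0.547). Without wildtype replicate 5 it was 0.15. The third Klf6 probe set was under the filter on all 10 arrays, between 2.44 and 3.40 in null and between 2.47 and 3.79 in wildtype embryos, with a log2 fold change of 0.07 (SE 0.30). The 2 measured Klf6 probe sets had a Pearson r of 0.676 over the 10 arrays.

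Myc, the bHLH factor that drives growth and ribosome synthesis, was measured just above the filter. Its log2 signal was 4.73, 4.88, 4.64, 5.30 and 4.02 in null embryos, against 4.45, 5.05, 4.16, 4.22 and 4.33 in wildtype embryos. Null replicate 7 was the highest array and null replicate 8 the lowest, so the null group spanned the whole wildtype range. The log2 fold change was 0.27 (SE 0.23, 95% interval -0.23 to 0.77, limma adjusted p = 0.683). It was 0.45 without null replicate 8 and 0.13 without null replicate 7. Without wildtype replicates 1 and 2, the 2 highest wildtype arrays for Myc, it was 0.47 (limma adjusted p = 0.508).

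Ccn1 and Ier2 are the family members outside the transcription factor classes above. Ccn1, a secreted matricellular protein induced by SRF and YAP that binds integrins and heparan sulfate, read 6.78, 6.15, 6.77, 7.16 and 7.19 in null embryos, against 7.69, 8.14, 7.15, 7.03 and 7.21 in wildtype embryos. Null embryos 3, 4 and 5 lay below every wildtype array, wildtype replicates 1, 2 and 5 above every null array, and the remaining 4 arrays overlapped. The means were 6.81 ± 0.42 in null and 7.44 ± 0.46 in wildtype tissue (SD, n = 5 each). The log2 fold change was -0.63 (SE 0.24, 95% interval -1.16 to -0.11), a 1.55-fold difference with an exact permutation p of 0.0556, a limma unadjusted p of 0.0222 and an adjusted p of 0.332. Without wildtype replicates 1 and 2 it was -0.32 (limma adjusted p = 0.639). This probe set is of the _x_at type, whose probes can match transcripts of other genes.

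The second Ccn1 probe set, whose type reads transcripts of 1 gene, was near the bottom of the scale. It read 2.30, 2.29, 2.34, 2.30 and 2.30 in null embryos, against 2.73, 2.83, 2.29, 2.30 and 2.29 in wildtype embryos. It left that level in wildtype replicates 1 and 2 alone, the arrays on which the brighter probe set was also highest. Its log2 fold change was -0.18 (SE 0.12) with all arrays and 0.01 without these 2. Ier2, a small nuclear protein that is among the fastest genes induced by serum, read 2.82, 2.83, 3.16, 2.74 and 2.82 in null embryos, against 2.89, 2.83, 2.82, 2.82 and 2.82 in wildtype embryos. Only null replicate 5 was over log2 3, and the log2 fold change was 0.04 (SE 0.07).

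**Figure D3:**
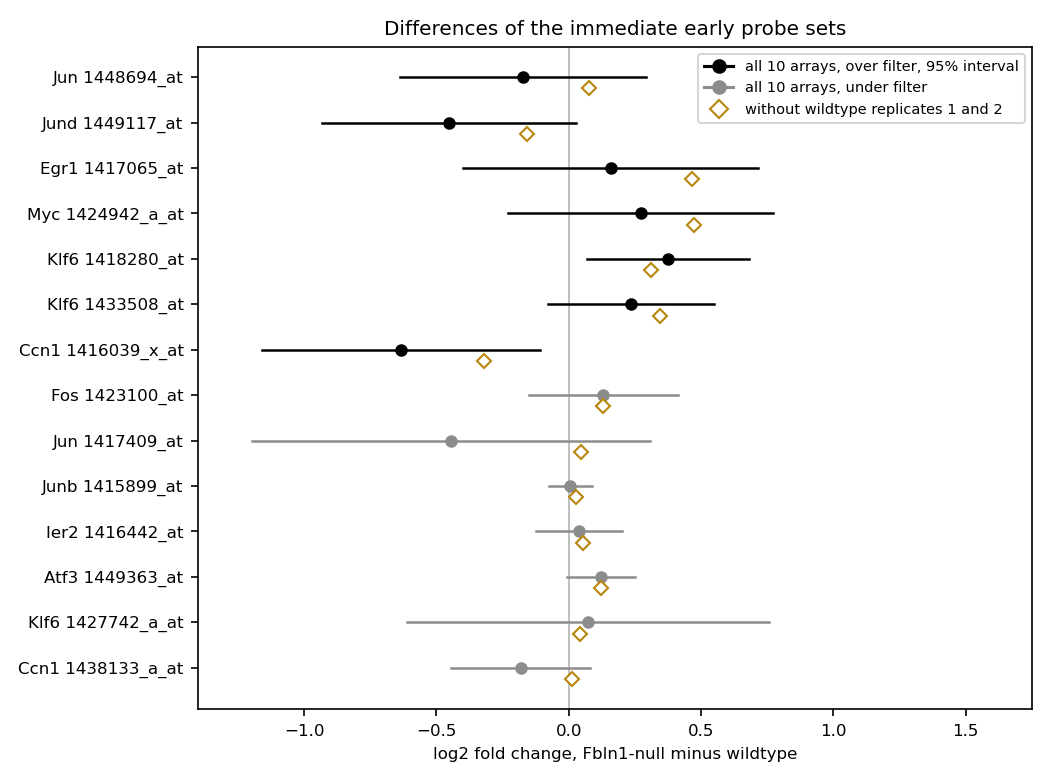
Log2 fold change (null minus wildtype, horizontal axis) of the 14 probe sets with all 10 arrays and its 95% interval, in black over the filter and in grey under it, and without wildtype replicates 1 and 2 as open diamonds. The intervals of the dimmer measured Klf6 and the brighter Ccn1 probe set leave out 0, and without the 2 wildtype arrays both Jun probe sets move to the right of 0. Those 2 arrays were the highest on both Jun probe sets, so their removal can only move the value to the right.

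The order of the embryos differed between family members. Wildtype replicates 1 and 2 held the first and the second place among the 10 arrays for Jun, Jund and Ccn1, but wildtype replicate 1 was the lowest array for the dimmer of the measured Klf6 probe sets. Null replicate 7 was the lowest array for Jun and Jund and the highest for Myc and for both measured Klf6 probe sets. It was also the array on which Fos left the bottom of its scale. Correlations over the 10 arrays were computed for the 15 pairs of the 6 measured genes, each on its brightest probe set. Jun and Jund had a Pearson r of 0.828 (permutation p = 0.00051, adjusted p = 0.00765 over 15 pairs) and a Spearman rho of 0.855 (permutation p = 0.0031, adjusted p = 0.0465). Without null replicate 7 and wildtype replicate 1, the arrays farthest from the median of Jun, r was 0.725. Without wildtype replicates 1 and 2 it was 0.665, and with the genotype means removed it was 0.852. By that last measure genes outside the family came higher, up to 0.947 with Jun and 0.969 with Jund. The share of all gene pairs with an r this high was not computed. For the other 14 pairs the pooled r was -0.11 to 0.52 and the adjusted permutation p of r was 0.425 to 0.978. Within the wildtype arrays alone the 15 pairs had an r of 0.08 (Egr1 and Klf6) to 0.94 (Myc and Ccn1). Within the null arrays r was -0.59 (Jund and Ccn1) to 0.97 (Myc and Klf6). Each of these rests on 5 arrays and was not tested. Jund and Ccn1 had an r of 0.497 (rho 0.273, permutation p = 0.45) over all arrays (adjusted permutation p of r 0.425), and an r of -0.35 without wildtype replicates 1 and 2.

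**Figure D4:**
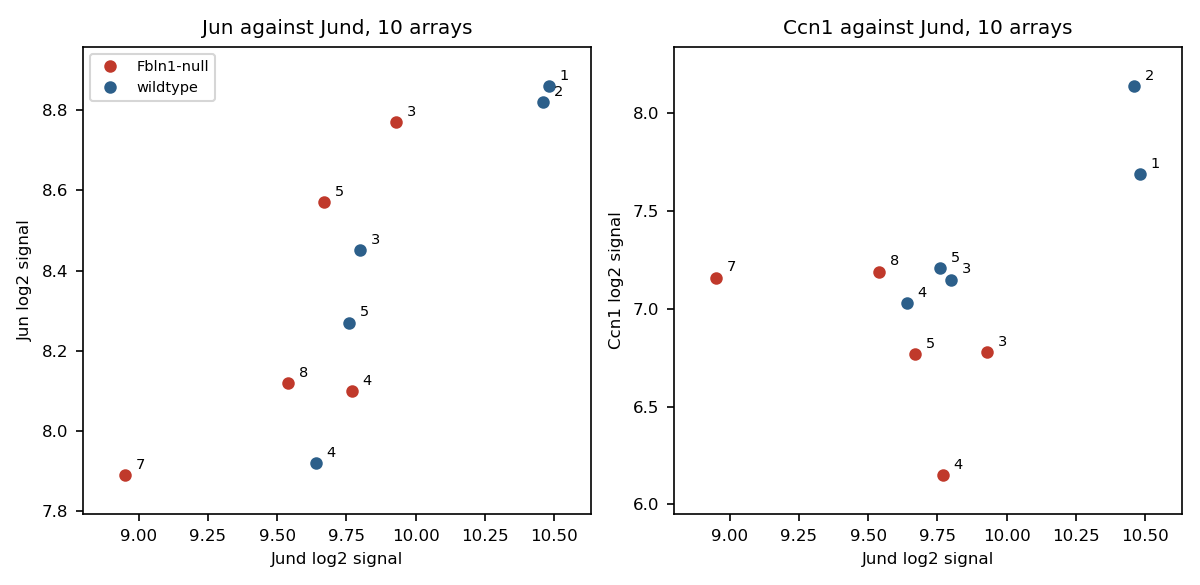
Log2 signal of Jun (left) and Ccn1 (right) against that of Jund on the 10 arrays, null in red and wildtype in blue, numbered by replicate. Jun follows Jund across both genotypes (r = 0.828), while Ccn1 is highest in the same 2 wildtype arrays and shows no such order among the others.

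Spread between embryos of 1 genotype was wide for most of the family. The SD pooled within the genotypes was 0.38 for Jun, 0.39 for Jund, 0.41 for Myc, 0.44 for Ccn1 and 0.47 for Egr1, against a median of 0.27 over all 9801 probe sets. Egr1 was more variable than 90.6% of them and Ccn1 than 87.5%. Klf6 was the exception, with pooled values of 0.20 and 0.21, lower than the median. On its brighter probe set, however, the SD was 0.06 in null and 0.30 in wildtype tissue. Signal brightness was not matched in this ranking.

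The genes most like each member were sought among 5906 others by the Pearson r over the 10 arrays after removal of the genotype means. For Jund they were Armcx2 (0.969) and Lbx1 (0.969), a homeobox factor of dorsal hindbrain neurons and of migrating muscle precursors, and for Jun they were Tbcd (0.947), a tubulin chaperone, and Sox9 (0.940), a factor of neural crest and cartilage. Egr1 was nearest to Zfp428 (0.960) and Pom121 (0.953), a nuclear pore protein. Klf6 was nearest to Cnot6l (0.914), an mRNA deadenylase, and Syncrip (0.912), an RNA-binding protein. Ccn1 had Lman2 (0.920), a lectin of the secretory pathway, and 2310061I04Rik (0.855), and Myc had Fndc3a (0.892) and Fmr1 (0.879), an RNA-binding protein. Values this high are the top of a long search over 10 arrays that share their libraries, and they are given as a description.

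Other immediate early genes also fell on both sides of the filter. Of 54 listed genes 50 were on the array and 21 over the filter. The 3 Fos relatives Fosb, Fosl1 and Fosl2, the 3 Egr relatives Egr2, Egr3 and Egr4, and the 3 orphan receptors Nr4a1, Nr4a2 and Nr4a3 were under log2 4 on all 10 arrays, with highest values of 2.79, 3.48 and 3.16. These families were named after their values were seen. Of all 29 genes under the filter 27 were never over log2 4. Among the 21 over it, 14 had a lower and 7 a higher mean in null tissue, or 66.7% lower against 56.9% of all 5912 measured genes, and 0 passed the adjusted threshold. At an unadjusted p of 0.05 stood 1 lower and 0 higher, where 12.8% of measured genes did. The 3 with the smallest p were Nfkbia, the inhibitor of NF-kappaB, with a log2 fold change of -0.36 (limma adjusted p = 0.388), Plk2, a polo-like kinase, at 0.47 (0.417), and Errfi1, a feedback inhibitor of the EGF receptor, at 0.23 (0.456).

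The kinases and factors that induce the family were measured for 12 of 16 listed genes on the array. Of these 7 had lower and 5 higher means in null tissue, or 58.3% lower against 56.9% of all measured genes. None passed the adjusted threshold, and 2 of the 12 stood lower at the unadjusted one, where 12.8% of measured genes stood in either direction. Those 2, Mapk9 and Mapk14, were also without overlap, as were 2.77% of all measured probe sets. Mapk9, which encodes the Jun kinase JNK2, read 7.93, 7.88, 7.84, 7.59 and 7.62 in null embryos, against 8.25, 8.34, 8.57, 8.82 and 8.02 in wildtype embryos. All 5 null arrays were below all 5 wildtype arrays, with a log2 fold change of -0.63 (limma SE 0.16, adjusted p = 0.139). Mapk14, which encodes p38 alpha, read 7.92, 7.81, 7.72, 7.34 and 7.63 in null embryos, against 9.19, 9.13, 8.36, 8.89 and 8.46 in wildtype embryos. Here too the groups lay apart, with a log2 fold change of -1.12 (limma SE 0.18, adjusted p = 0.0633). Mapk8, which encodes the other Jun kinase JNK1, had a log2 fold change of 0.07 (limma SE 0.13, adjusted p = 0.880). Map2k1, the ERK kinase MEK1, had 0.27 (limma SE 0.13, adjusted p = 0.437). Of 10 measured genes in the list of AP-1 partners 6 were lower and 4 higher, with 0 at either threshold. The list also holds Cops5, Fbxw7 and Gsk3b, which are not bZIP factors. Nfe2l1, a bZIP activator of proteasome genes, had the smallest p, at -0.26, then Bach1, a bZIP repressor of heme oxygenase, at 0.26 and Mafg, a small Maf protein, at 0.27 (limma adjusted p 0.558 to 0.592).

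Partners and targets of Myc gave no call. Of 13 measured genes of the Myc network 9 were lower and 4 higher (median log2 fold change -0.23), or 69.2% lower against 56.9% of all measured genes, and the difference between these shares was not tested. At an unadjusted p of 0.05 stood 3 lower and 1 higher, where 12.8% of all measured genes did, and 0 passed the adjusted threshold. The 3 with the smallest p were Mycbp, a Myc-binding protein, Ruvbl1, an ATPase of chromatin complexes, and Mlxip, a partner of Mlx. Mycbp read 6.91, 6.93, 6.90, 7.23 and 7.52 in null embryos, against 7.52, 7.68, 7.69, 7.57 and 7.58 in wildtype embryos. Its groups did not overlap, as in 2.77% of all measured probe sets, though null replicate 8 and wildtype replicate 1 were both at 7.52 after rounding, and its log2 fold change was -0.51 (limma SE 0.14, adjusted p = 0.182). Ruvbl1 had -0.61 (limma adjusted p = 0.299) and Mlxip -0.59 (0.302). Of 20 measured target genes 14 were lower and 6 higher (70.0% lower, median -0.05), with 2 lower and 0 higher at the unadjusted threshold and 0 past the adjusted one. Nolc1 had -0.40, Rrs1 -0.65 and Fbl -0.35, all of them nucleolar proteins of ribosome synthesis (limma adjusted p 0.369 to 0.418).

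The surroundings of Ccn1 and Klf6 gave no call. Of 10 measured CCN and TEAD-YAP genes 5 were lower and 5 higher, with 0 at the unadjusted threshold. Tead2, a DNA-binding partner of YAP, had a log2 fold change of -0.55 (limma adjusted p = 0.428), Lats2, a kinase that inhibits YAP, -0.38 (0.556) and Ccn2, another CCN protein that YAP induces, -0.31 (0.630). Tead2 read 6.37 to 7.77 in the null arrays, against 7.29 to 8.28 in the wildtype arrays, where replicates 1 and 2 were again the highest. In the KLF and Sp list 4 of 5 measured genes were lower and 0 stood at either threshold, with Sp1 at -0.36, Klf7 at -0.26 and Klf13 at -0.17 (limma adjusted p 0.472 to 0.763). Of 10 measured genes in the heat shock list 8 were lower and 2 higher, against 56.9% of all measured genes lower. Hspa1a, Hspb1, Bag3 and Hsf2 of this list were under the filter. At the unadjusted threshold 2 of the 10 stood lower, where 12.8% of all measured genes stood in either direction, and 0 passed the adjusted one. Dnajb1 had -0.91 (limma adjusted p = 0.0781) with no overlap, as in 2.77% of measured probe sets, Hspa4 -0.31 and Dnaja1 -0.24. Ccn2, Klf2, Klf4 and Klf10 belong to more than 1 of these lists.

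**Figure D5:**
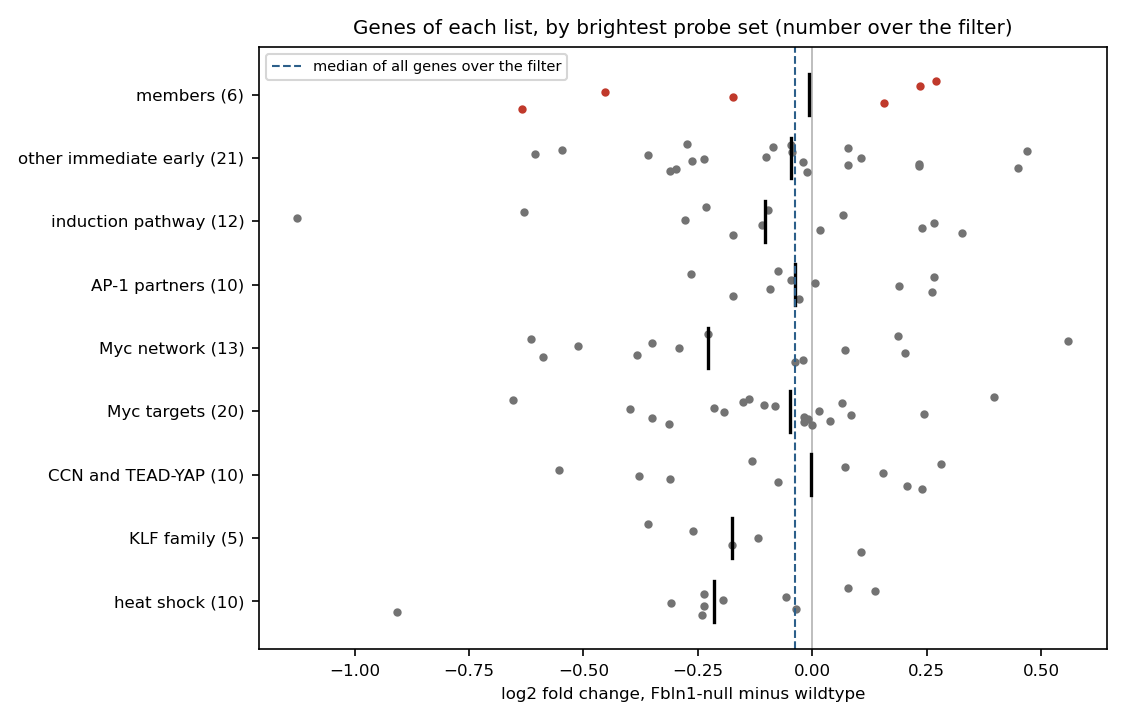
Log2 fold change (null minus wildtype, horizontal axis) of each measured gene by list, the 6 measured family members in red and other lists in grey, with list medians as black bars and the median of all measured genes (-0.04) dashed. The family splits into 3 genes below and 3 above 0, and Mapk14 and Dnajb1 lie farthest to the left.

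The arrays themselves were alike in scale. Array medians were 3.20 to 3.29 and correlations between arrays 0.985 to 0.996. Fbln1 had a log2 signal of 2.66 ± 0.13 in null and 4.55 ± 0.50 in wildtype tissue on its brighter probe set (SD, n = 5 each) and no overlap. That probe set was itself under the filter, being over log2 4 on 4 arrays, and its limma adjusted p was 0.0715. It was highest in wildtype replicates 1 and 2, at 4.93 and 5.11. By sex-linked transcripts wildtype replicate 4 was the 1 female embryo. Markers of the labelled tissue were present for 6 of 8 hindbrain genes and 8 of 11 arch mesenchyme genes, while Hoxb2, Sox3, Dlx5, Hand2 and Msx1 were never over log2 4. Of other cell types, 4 of 8 erythroid, 5 of 9 endothelial, 1 of 9 heart, 0 of 7 leukocyte and 1 of 6 liver and yolk sac markers were over the filter. The summed erythroid level, as log2 of the summed linear signals, was 13.55 to 14.25 in null and 13.02 to 14.20 in wildtype arrays. The summed endothelial level was 8.92 to 9.07 in null and 8.82 to 9.15 in wildtype arrays, and that of liver and yolk sac markers 6.04 to 9.14 in null and 5.94 to 9.04 in wildtype arrays. The heart level was 7.22 to 7.59 in null and 7.16 to 7.82 in wildtype arrays, the arch mesenchyme level 11.45 to 12.02 in null and 11.46 to 11.79 in wildtype arrays, and the leukocyte level, with all 7 markers never over log2 4, 5.53 to 5.79 in null and 5.35 to 5.60 in wildtype arrays. The hindbrain level was 9.76 to 10.04 in null and 9.74 to 10.13 in wildtype arrays. The brightest markers weigh most in such sums, here Pax3, with means of 9.19 in null and 9.18 in wildtype tissue. Of the 6 measured hindbrain markers 4 were lower and 2 higher in null tissue. Pax6 had the smallest p, at a log2 fold change of -0.52 (limma adjusted p = 0.222). The part of these cell types in the values of the immediate early genes was not tested.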

How the data were processed

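Biotin-labelled cRNA was made from the total RNA of 10 dissections with a 3′ IVT kit, per the labels' protocols. The deposited values are on the log2 scale, and the authors used GCRMA, per the submitters' processing notes, in a version not given in the sources used here. Precision is limited by having 10 arrays. GCRMA takes background from probe sequence, and dim probe sets end at a nearly constant floor. The values ran from 2.22 to 14.8.

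Of 22690 probe sets 64 controls were left out, and names came from the platform annotation (1 symbol for 20380 probe sets, several for 691, none for 1555). Listed genes were matched through RefSeq gene IDs (GRCm38.p6), 260 of 260 entries. Genes were represented by their brightest kept probe set.

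The genotypes were tested with limma 3.58.1 in R 4.3.3 (lmFit, eBayes, genotype alone, two-sided) with Benjamini-Hochberg adjustment over 9801 kept probe sets, or over 22626 for probe sets under the filter. Exact permutation tests ran over all assignments of 5 and 5 arrays (two-sided, smallest p 0.00794), and permutation tests of correlations used 100000 resamples. The fit was tested on simulated data. Other settings tried were the scaling, the filter, a floor, another variance model, weighted arrays, the replicate number as a block, sex, the actin probe ratio and the removal of arrays. Genes were named by rule: all probe sets of the family, the 3 smallest p in each list, Fbln1, and the 2 nearest genes of each measured member. The family, the lists and the rules were chosen with earlier results of these data known. Coordinates belong to the RefSeq promoter table; no build was named for the arrays.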

Additional observations from a re-analysis of the deposited data

Results flagged for a closer look

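In 7 of 28 groups of 5 values examined for the 14 probe sets, 1 array lay far from the other 4 by Dixon's gap test at the 95% level. Chance flags about 1 in 20 such groups, and all 7 were on probe sets under the filter, where the other arrays hold nearly equal values. Fos stood at 3.23 in null replicate 7, against a next value of 2.58. In wildtype tissue Fos was lowest in replicate 1 at 2.578, but the whole range there was 0.005 on the log2 scale. Junb was highest at 2.41 in null replicate 4 and at 2.38 in wildtype replicate 2. Ier2 was highest at 3.16 in null replicate 5 and at 2.89 in wildtype replicate 1. The dimmer Ccn1 probe set was highest at 2.34 in null replicate 5, where the null range was 0.055. In the 7 measured probe sets 0 groups were flagged.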

How the results depend on the processing

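Over up to 21 alternatives a probe set, 258 of 271 values for the 14 probe sets kept their sign and 0 passed the adjusted threshold (lowest adjusted p 0.164, Ccn1 with array weights). Scaling by quantiles or array medians moved the median of all probe sets by at most 0.05. The sign turned in 13 cases, and the cause was not tested: the brighter Jun to 0.077, the dimmer Jun to 0.044 and the dimmer Ccn1 to 0.013 without wildtype replicates 1 and 2. Egr1 turned to -0.25 and Ier2 to -0.055 with the actin probe ratio, and the dimmest Klf6 to -0.015 with sex. Only wildtype replicate 4 was female, so the sex setting gave the same values as its removal. Both settings are among the 271 values. With 1 array left out the ranges were -0.016 to 0.30 for Egr1, -0.022 to 0.028 for Junb, -0.033 to 0.071 for Ier2 and -0.035 to 0.29 for the dimmest Klf6. Jund ranged from -0.55 to -0.30 with 1 array left out and Ccn1 from -0.74 to -0.46.

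Probe sets called over the table numbered 2. They were 34 with a log2 6 filter or array weights, 8 with trend and robust variance, 1 without a filter, 0 with sex, the actin probe ratio or without wildtype replicates 1 and 2, 46 at an adjusted p of 0.1 and 0 to 7 with 1 array left out (7 without wildtype replicate 3, 1 without wildtype replicate 5, and 0 without null replicate 5, 7 or 8 or wildtype replicate 1, 2 or 4). With the replicate number as a block it was 1. Replicate numbers 3, 4 and 5 occur in both groups, with correlations of deviations of -0.19, -0.34 and 0.16. These are too few to tell whether the numbers pair the samples. Every member kept its side of the adjusted threshold under the block. Members called were 0 under every alternative run and 2 at an unadjusted p of 0.05. That 2 was 3 with the block, sex, array weights or trend and robust variance, 4 with the actin probe ratio, 1 of 4 tested with the log2 6 filter, 0 without wildtype replicates 1 and 2, and 0 to 3 with 1 array left out. Over all 9801 probe sets the count at that threshold was 1215 in the main fit. It was 1088 with the block, 1069 with sex, 1429 with array weights and 1216 with trend and robust variance. It was 1194 with the actin probe ratio, 846 of 6320 with the log2 6 filter and 1107 without wildtype replicates 1 and 2. Members with a lower mean were 2 to 4 of 7, or 3 of 4 with the log2 6 filter. The floor setting gave no value for probe sets never over log2 4, nor did the log2 6 filter for those under it.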
